A study of Mus musculus with 6 samples.

Results

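Genes of the vascular endothelial growth factor (VEGF) system were described in mouse fetal liver at E14.5, with and without the Tmod3 gene, which encodes the actin-capping protein tropomodulin 3. The arrays came from 3 Tmod3-/- embryos (knockout), labelled as having a small fetal liver and anemia, and 3 Tmod3+/+ embryos (wild type), labelled normal, all on the C57BL/6J strain and described as independent embryos. The sources used here do not give the knockout allele or the part of the gene it removes. The source is given as fetal liver with no sorting named, so all cell types of the organ share each value. In such bulk samples, fewer cells of a type and less RNA per cell cannot be told apart. The 9 members are the ligand genes Vegfa, Vegfb, Vegfc and Pgf, the receptor tyrosine kinase genes Flt1, Kdr and Flt4, and the coreceptor genes Nrp1 and Nrp2. They were chosen by gene symbol, out of 19938 genes measured on Affymetrix MoGene 1.0 ST arrays, and each had 1 probe set. The family was proposed with the knockout and wild type values of these arrays already known, so p-values of its members are given only to place them in the fit over all genes.

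VEGF ligands are secreted dimers that bind receptor tyrosine kinases on endothelial cells and drive the growth, branching and survival of blood and lymph vessels. Vegfa acts mainly through Kdr (VEGF receptor 2), while Flt1 (VEGF receptor 1) binds Vegfa tightly, signals weakly and can act as a decoy. Vegfc signals through Flt4 (VEGF receptor 3) in lymphatic and developing blood vessels, Vegfb and Pgf (placental growth factor) bind Flt1, and neuropilins present ligands to the kinases and also bind class 3 semaphorins. Vegfa transcription is a classical target of hypoxia-inducible factors (HIF), and in liver the ligand made by parenchymal cells acts on the sinusoidal endothelium.

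Promoter sequence is shown for Vegfa, the ligand whose groups lay furthest apart, and for Flt1 and Kdr, the receptors that bind it. Each window holds the 250 bases before the annotated start of the gene, from RefSeq on GRCm38.p6, all on the minus strand and written 5′ to 3′. The Vegfa window is chr17:46032378-46032627, the Flt1 window chr5:147726012-147726261 and the Kdr window chr5:75978456-75978705. Capitals mark the GC box GGGCGG in the Vegfa window, and in the Flt1 and Kdr windows GCGTG, 1 of the 2 forms of the HIF core motif, on either strand (CACGC where it lies on the other strand).
Vegfa: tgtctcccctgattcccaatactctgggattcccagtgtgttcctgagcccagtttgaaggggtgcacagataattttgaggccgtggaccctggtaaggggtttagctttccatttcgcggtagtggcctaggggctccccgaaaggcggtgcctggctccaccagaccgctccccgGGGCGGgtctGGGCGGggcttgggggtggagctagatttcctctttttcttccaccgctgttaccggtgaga
Flt1: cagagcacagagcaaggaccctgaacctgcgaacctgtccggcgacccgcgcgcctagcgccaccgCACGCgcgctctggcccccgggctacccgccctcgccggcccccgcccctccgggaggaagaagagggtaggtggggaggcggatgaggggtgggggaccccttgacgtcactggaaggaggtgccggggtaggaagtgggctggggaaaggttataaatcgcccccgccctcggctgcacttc
Kdr: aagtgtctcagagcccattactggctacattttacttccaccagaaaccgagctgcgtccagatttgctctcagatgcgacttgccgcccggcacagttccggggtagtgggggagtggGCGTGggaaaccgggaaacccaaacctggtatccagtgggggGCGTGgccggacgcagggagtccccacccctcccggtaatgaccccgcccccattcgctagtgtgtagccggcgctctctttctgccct
Both strands were searched for the HIF core forms ACGTG and GCGTG. The GC box GGGCGG was searched in the same way, and matches of different motifs were counted separately also where they overlapped. The Vegfa window shown held neither HIF form and 2 GC boxes, at 72 to 67 and 62 to 57 bases before the start. A second RefSeq window of Vegfa (chr17:46025164-46025413) held 1 ACGTG and 1 GCGTG. It precedes another annotated start, downstream of the first, so these matches lie inside the gene as read from the first start. Bases farther than 250 before a start were not searched. Kdr had GCGTG at 131 to 127 and 89 to 85 bases before the start, and Flt1 had it at 184 to 180. The Flt1 and Kdr windows also held 3 and 2 GC boxes, which are left in lower case there. Of the 11 windows of the 9 members, 7 held ACGTG or GCGTG, against 38.6% of all 32851 windows of this length. All 7 held GCGTG (28.2% of all windows) and only 1 held ACGTG (16.6% of all windows). The GC box was in 10 of the 11, against 32.7% of all windows. These matches are letters in a window and do not show binding.

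Before the members, the arrays themselves were checked. Tmod3 read 1.32, 2.36 and 1.30 in the knockout arrays and 4.49, 4.78 and 4.90 in the wild type arrays, so each array matched its genotype label. Values are log2 expression values as deposited, and array medians over all probe sets lay between 1.36 and 1.43, so members near that level lie in the middle of all probe sets, where most values are low. Over all probe sets, wild type replicate 1 correlated at 0.983 with both wild type replicate 2 and knockout replicate 1 and at 0.978 with wild type replicate 3, and without it the number of genes past the threshold went from 3 to 95. Hepatoblast and hepatocyte markers averaged 4.61 to 5.54 in knockout and 5.50 to 5.93 in wild type livers. Erythroid markers averaged 5.10 to 5.40 in knockout and 5.14 to 5.70 in wild type livers. The erythroid averages join 9 markers with a lower mean in knockout liver and 2 with a higher mean.

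Among the ligands, Vegfa read higher in all knockout livers, and the intervals of the other 3 ligands included 0. Vegfa read 2.82, 2.83 and 3.08 in the knockout arrays and 2.01, 2.09 and 2.11 in the wild type arrays. Every knockout array lay above every wild type array by at least 0.71, and the wild type arrays lay close together. The means were 2.91 ± 0.14 and 2.07 ± 0.05 (SD, n = 3 each), a 1.79-fold higher level in knockout liver. On the log2 scale this difference was +0.84, its standard error 0.11 and its 95% interval 0.59 to 1.09. Vegfa ranked 11 of 19938 genes by limma p and 20 by log2 fold change, but its Benjamini-Hochberg adjusted p was 0.103, so it did not pass the threshold of 0.05. A two-sided exact permutation test gave p = 0.1, the smallest that 3 against 3 arrays allow. Every gene whose groups do not overlap gets this value. Vegfa was the member on which the family was proposed, so its ranks and p-values are no independent support. Among the wild type arrays Vegfa lay between the 76.5 and 77.6 percentiles of all probe sets, and among the knockout arrays between 85.1 and 87.3. Of the 2111 genes at a mean level from 2 to 3, 4 had a log2 fold change at least as high as that of Vegfa, which is 1 of them, and their median was -0.13. Leaving out any 1 array kept the Vegfa change between +0.75 and +0.88. The adjusted p came down to 0.0505 without wild type replicate 1 and stayed above the threshold in each of these fits. In the fit without that array 95 genes passed, and the Vegfa change was +0.81. The unadjusted limma p of Vegfa rose there from 5.71e-05 to 2.55e-04, so the lower adjusted p was not a clearer Vegfa difference. The probe set gives 1 value per gene, so the Vegfa splice forms, which differ in how they bind heparan sulfate, were not separated.

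**Figure D1:**
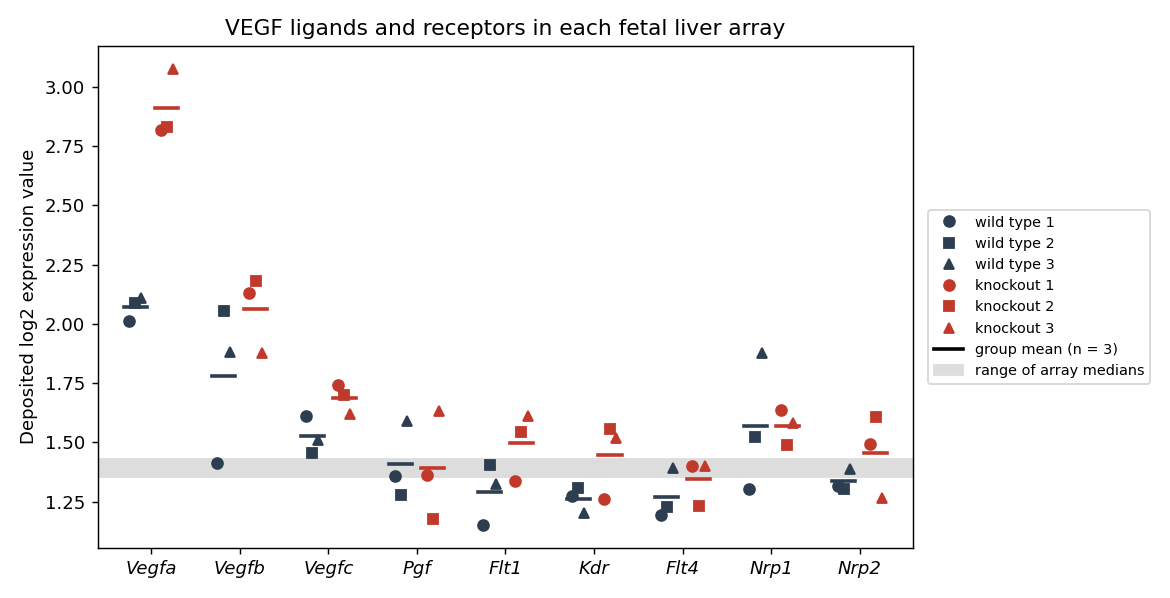
Deposited log2 expression value (vertical axis) of the 9 VEGF ligand and receptor genes in each of the 6 arrays. Dark blue points are wild type and red points knockout livers, marker shapes give the replicate number, horizontal bars are group means (n = 3), and the grey band spans the array medians of 1.36 to 1.43. The knockout values of Vegfa lie at 2.82 to 3.08, above all wild type values, while Flt1, Kdr, Flt4, Pgf and Nrp2 scatter around the band.

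Vegfb, a ligand of Flt1 linked to tissue metabolism more than to vessel growth, read 2.13, 2.18 and 1.88 in knockout and 1.41, 2.05 and 1.88 in wild type livers. Its low mean in wild type came from replicate 1, and the groups overlapped. The log2 fold change was +0.28 (95% interval -0.12 to 0.68, limma adjusted p = 0.717), and without wild type replicate 1 it was +0.10. Vegfc, the ligand of Flt4, read 1.74, 1.70 and 1.62 in knockout and 1.61, 1.45 and 1.51 in wild type livers. The groups of Vegfc did not overlap, but by a margin of only 0.0071, and its log2 fold change was +0.16 (95% interval -0.07 to 0.39, limma adjusted p = 0.710). Pgf, which binds Flt1, read 1.36, 1.18 and 1.63 in knockout and 1.36, 1.28 and 1.59 in wild type livers, and the groups covered the same range. Its log2 fold change was -0.02 (95% interval -0.35 to 0.32). Vegfd, the remaining ligand of the family and no member of the set, was looked up after its values were seen. It read 1.36, 1.40 and 1.34 in knockout and 1.54, 1.56 and 1.53 in wild type livers, the opposite order to Vegfa and without overlap, with a log2 fold change of -0.17 (limma adjusted p = 0.649).

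The 3 receptor kinases lay near the array medians, with group means of 1.26 to 1.50, and the interval of each difference included 0. Flt1 read 1.34, 1.54 and 1.61 in knockout and 1.15, 1.40 and 1.32 in wild type livers. Knockout replicate 1 lay below wild type replicate 2, so the groups overlapped, and the log2 fold change was +0.21 (95% interval -0.07 to 0.48, limma adjusted p = 0.695), and +0.14 without wild type replicate 1. Whether the values come from full-length Flt1 or from its soluble decoy form cannot be told apart with 1 probe set. Kdr read 1.26, 1.56 and 1.52 in knockout and 1.28, 1.31 and 1.20 in wild type livers. For Kdr, knockout replicates 2 and 3 lay above all wild type arrays and knockout replicate 1 among them. Its log2 fold change was +0.18 (95% interval -0.08 to 0.45, limma adjusted p = 0.712), and +0.28 without knockout replicate 1. Flt4 read 1.40, 1.23 and 1.40 in knockout and 1.19, 1.23 and 1.39 in wild type livers, and its log2 fold change was +0.07 (95% interval -0.17 to 0.32). It lay between +0.03 and +0.14 when 1 array was left out, lowest without wild type replicate 1 and highest without wild type replicate 3. For the receptors the intervals leave room for a change of up to 0.48 on the log2 scale.

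For both coreceptors the groups overlapped. Nrp1, which pairs with Kdr in binding Vegfa, read 1.64, 1.49 and 1.58 in knockout and 1.30, 1.52 and 1.88 in wild type livers. The wild type arrays held both the lowest and the highest Nrp1 value, and the log2 fold change was 0.002 (95% interval -0.35 to 0.35). Nrp2, which pairs with Flt4 in binding Vegfc, read 1.50, 1.61 and 1.27 in knockout and 1.32, 1.30 and 1.39 in wild type livers. Here the knockout arrays held both extremes, and the log2 fold change was +0.12 (95% interval -0.15 to 0.39). For Nrp2 it was +0.04 without knockout replicate 2 and +0.22 without knockout replicate 3.

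Counted over the family, 0 of 9 members passed the adjusted threshold (limma), where 0.015% of all genes did, all of them lower in knockout liver. At an unadjusted p under 0.05, 1 of 9 members was higher (Vegfa) and none was lower, beside 9.03% of all genes in either direction, 2.59% higher and 6.44% lower. The groups lay apart without overlap, knockout higher, for 2 of 9 members (Vegfa and Vegfc), beside 6.14% of all genes, and knockout lower for 0 of 9, beside 7.1%. These shares are read only as description, since the family was proposed with this contrast known. They are also the background for the counts of the gene lists given below. The log2 fold change was above 0 for 8 of 9 members, with a median of +0.16, beside 51.6% and a median of 0.01 over all genes. That share depends on level. It was 37.9% among genes above the median level and 19.4% at a mean level of 3 or more, so it was above 51.6% among dimmer genes. Genes with a mean level below 2 had a median of +0.03. With each array centred on its median, 7 of 9 members were above 0, beside 41.7% of all genes, Nrp1 being the member whose sign turned. Genes with a mean level below 2, where 8 of the 9 members lie, spanned -0.28 to 0.30 in log2 fold change over their middle 95%, and the 8 dim members all lay inside that span.

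**Figure D2:**
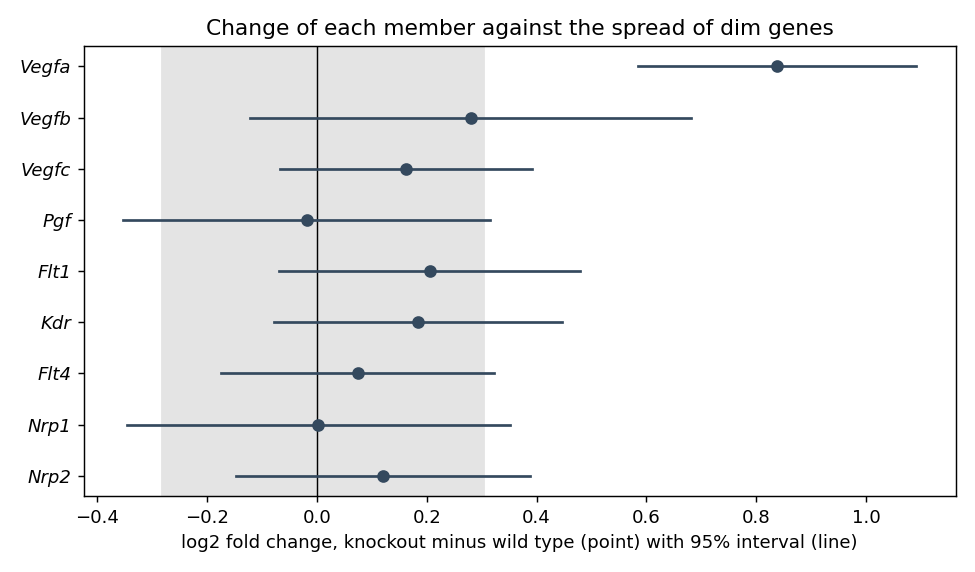
Difference in log2 level, knockout minus wild type (horizontal axis), of each of the 9 members, as a point with its 95% interval from limma (n = 3 arrays per genotype). The grey band is the span from -0.28 to 0.30 that holds the middle 95% of the 15282 genes with a mean level below 2. The other 8 points lie inside it, and Vegfa, at a mean level of 2.49, lies at 0.84, above the span of -0.70 to 0.36 of genes of its own level.

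Genes that respond to low oxygen were set beside Vegfa, itself such a gene. Of 20 measured hypoxia-induced genes other than Vegfa, 11 were higher in knockout liver at an unadjusted p under 0.05 and none was lower, with a median log2 fold change of +0.38, and 0 passed over all genes (limma). In other settings some did pass: Plod2 and Ero1a with renewed quantile normalization (limma adjusted p = 0.0172 and 0.0234) and with cyclic loess (0.0189 and 0.0275), Aldoa with cyclic loess (0.0472), and Pgk1 among genes at a mean level of 3 or more (0.0360). A similar list was already known to lie higher in these arrays, so this count is no independent support. Plod2, a collagen lysyl hydroxylase, read 3.24, 3.73 and 3.24 in knockout and 2.04, 2.18 and 2.44 in wild type livers (log2 fold change +1.19, limma adjusted p = 0.118). Pgk1, a kinase of glycolysis, read 7.42, 7.94 and 7.74 against 6.12, 6.19 and 6.83 (+1.32, adjusted p = 0.144). Knockout replicate 2 was the highest array for both, whereas for Vegfa it was knockout replicate 3. The oxidase gene Ero1a (+0.99) and the aldolase gene Aldoa (+1.31) were also highest in knockout replicate 2. Over the list the arrays averaged 3.08, 3.35 and 3.08 in knockout and 2.60, 2.66 and 2.78 in wild type livers, without overlap.

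**Figure D3:**
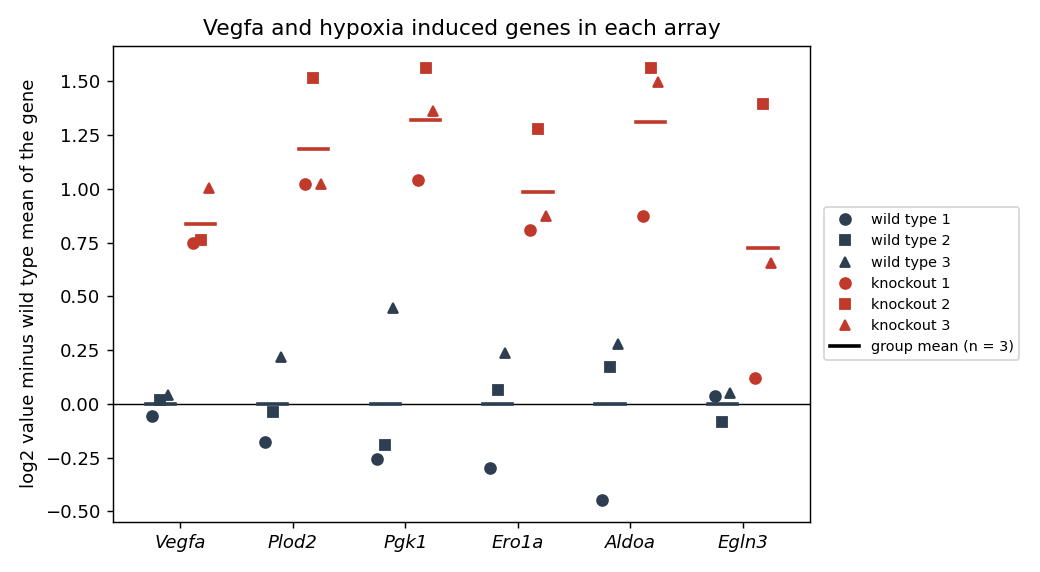
Vegfa and 5 hypoxia-related genes in each array, as the log2 value minus the wild type mean of that gene (vertical axis). Dark blue points are wild type, red points knockout, shapes give the replicate number and bars the group means (n = 3). Knockout replicate 2 (red square) is the highest array for Plod2, Pgk1, Ero1a, Aldoa and Egln3, and knockout replicate 3 (red triangle) for Vegfa.

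Among 11 HIF subunit and oxygen sensor genes, 3 were higher in knockout liver at an unadjusted p under 0.05, none was lower, and 0 passed over all genes (limma). They were the prolyl hydroxylase genes Egln1 (+0.58) and Egln3 (+0.72), whose products mark HIF subunits for destruction and are themselves induced by HIF, and Cited2 (+0.34), which competes with HIF for its coactivator. Egln3 read 1.30, 2.57 and 1.83 in knockout and 1.22, 1.09 and 1.23 in wild type livers, so its difference rested on knockout replicates 2 and 3, and without knockout replicate 2 it was +0.39. The subunit gene Hif3a had -0.28, with overlapping groups. Leaving out knockout replicate 2 brought the count of 3 to 1, as did leaving out wild type replicate 2 or 3. Of 5 proteins that bind Vegfa mRNA and set its stability, 0 reached an unadjusted p under 0.05, and Zfp36, which promotes decay of such mRNAs, had +0.21 with no overlap and +0.09 without knockout replicate 2. The list's count was 1 higher with renewed quantile normalization or cyclic loess, and 2 lower without wild type replicate 1. The hypoxia-induced list had 21 RefSeq promoter windows from 17 of its 21 genes, so some genes had more than 1 window. Of these windows, 18 held ACGTG or GCGTG and 12 held ACGTG, beside 38.6% and 16.6% of all windows. The GC box was in 16 of them, beside 32.7% of all windows.

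Genes known to be induced in endothelial cells by VEGF gave a mixed picture. Of 10 genes listed, 3 were higher at an unadjusted p under 0.05, beside 2.59% of all genes, none was lower and 0 passed over all genes (limma). The list median was +0.03, and -0.009 with each array centred on its median. Of the 10 genes, 9 had a mean level below 2. Esm1, which encodes the proteoglycan endocan of sprouting endothelial tip cells, read 2.33, 2.08 and 2.26 in knockout and 1.96, 1.86 and 1.97 in wild type livers (+0.30, limma adjusted p = 0.476). Apln, a peptide ligand made by tip cells, read 1.65, 1.38 and 1.32 against 1.30, 1.13 and 0.98 (+0.31, adjusted p = 0.537). Egr3, an immediate early transcription factor, read 2.10, 1.71 and 1.44 against 1.24, 1.42 and 1.26 (+0.44, adjusted p = 0.491, and +0.27 without knockout replicate 1). For all 3 the knockout arrays lay above the wild type arrays, and knockout replicate 1 was the highest array. The count of 3 fell to 0 without knockout replicate 1. It was 1 when knockout replicate 2, or either of wild type replicates 2 and 3, was left out. Rcan1, a calcineurin inhibitor induced by the same signal, lay the other way without overlap, with a log2 fold change of -0.13, or -0.08 without wild type replicate 3.

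**Figure D4:**
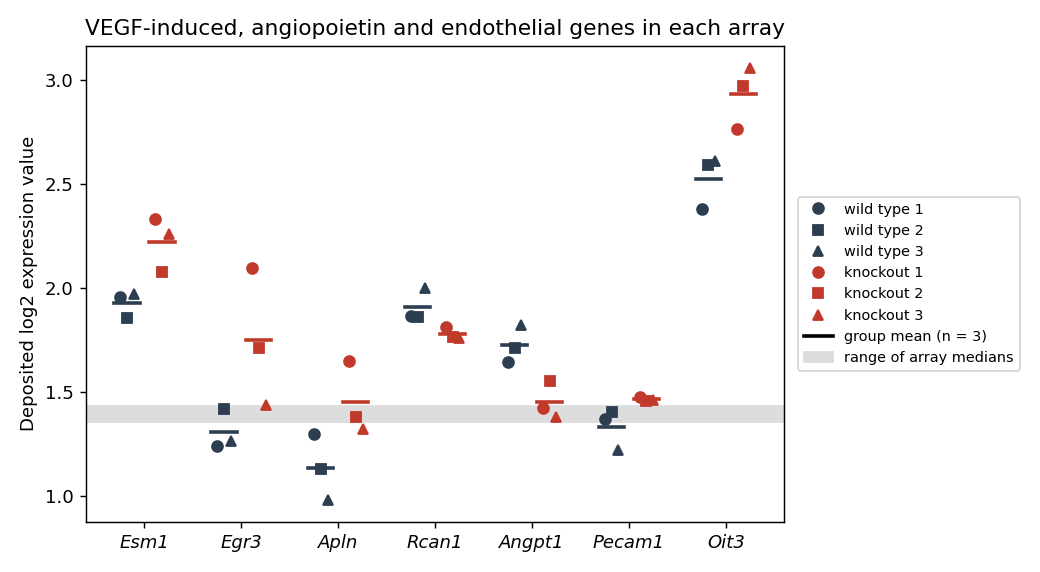
Deposited log2 expression value (vertical axis) in each array of VEGF-induced genes (Esm1, Egr3, Apln and Rcan1), the Tie2 ligand gene Angpt1 and the endothelial markers Pecam1 and Oit3. Colours, shapes, bars (group means, n = 3) and the grey band (array medians of 1.36 to 1.43) are as for the members. Knockout values of Esm1, Egr3 and Apln lie above the wild type values, those of Rcan1 and Angpt1 below.

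Other parts of the pathway showed few differences. Of 19 measured transducers of receptor signals, 1 was lower at an unadjusted p under 0.05 and none was higher. It was Cdc42, a small GTPase of actin and filopodia, with a log2 fold change of -0.37 (limma adjusted p = 0.336). The count was 0 with renewed quantile normalization, cyclic loess or the intensity trend, and 3 without knockout replicate 2. With array weights it was 4, as it was when wild type replicate 1 was left out. Of 12 semaphorins and plexins, which share neuropilins with the VEGF receptors, 0 reached an unadjusted p under 0.05, and all 12 had a mean level below 2. For 11 the log2 fold change was above 0, beside 51.6% of all genes and a higher share of dim genes. Sema3g (+0.23) and Sema3c (+0.15) had groups that did not overlap, 2 of 12 with knockout higher, beside 6.14% of all genes. In the angiopoietin and Tie group, 1 of 6 genes was lower at an unadjusted p under 0.05, namely Angpt1, which stabilises vessels through Tie2, with 1.42, 1.55 and 1.38 in knockout and 1.64, 1.71 and 1.82 in wild type livers (-0.27, limma adjusted p = 0.491). That count was 0 with the replicate block, and 0 when knockout replicate 1 or 3 was left out. Without wild type replicate 2 or 3 it was also 0. Of 11 Notch pathway genes of endothelium, 0 reached an unadjusted p under 0.05.

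The receptors are made mainly by endothelial cells, so markers of these cells are given beside them. Of 20 endothelial markers other than the members, 2 were higher at an unadjusted p under 0.05 and none was lower, with a median log2 fold change of +0.04 (0.003 without knockout replicate 1 or centred on array medians, and 0.02 without knockout replicate 2 or wild type replicate 1), and 16 had a mean level below 2. Their mean level was about 1.67 in each knockout array and 1.60 to 1.63 in the wild type arrays. The 2 were Ramp2, an adrenomedullin receptor subunit (+0.44), and Oit3, a marker of liver sinusoidal endothelium (+0.41). The defining marker Pecam1 had +0.13 at low levels (1.22 to 1.48 over all arrays), and +0.08 without wild type replicate 3. Cdh5, named after its values were seen, had -0.11 at levels of 2.16 to 2.52. It was -0.03 without knockout replicate 3, -0.06 without wild type replicate 1, and +0.011 with cyclic loess. Stellate and mesenchymal markers had a median of +0.14 (+0.04 without knockout replicate 3, +0.07 without wild type replicate 3 and +0.22 without knockout replicate 1), with Col1a1 (+0.38) and Rgs5 (+0.35) higher at an unadjusted p under 0.05 (2 of 11). Hepatoblast and hepatocyte markers had a median of -0.64, with 7 of 13 lower at an unadjusted p under 0.05. In this list 11 markers lay below 0 and 2 above. Its lowest change was -1.24 (Apoh), while Afp (+0.04) and Dlk1 (-0.01), named after their values were seen, lay near 0. Knockout replicate 3 was the lowest array of this list, at a mean of 4.61, and without it the median was -0.36 and the count 4. Without wild type replicate 2 or 3 the count was 3. Macrophage markers had a median of -0.18 (2 of 12 lower). That count was 0 without knockout replicate 3, without wild type replicate 2 or 3, and with renewed quantile normalization or cyclic loess, and it was 4 without wild type replicate 1. Erythroid markers had a median of -0.37 (5 of 11 lower and 2 higher), which was -0.22 with renewed quantile normalization and -0.23 with cyclic loess. The 2 higher were the embryonic globin genes Hba-x (+1.34) and Hbb-y (+1.45, named after its values were seen). The other 9 erythroid markers lay below 0. Only 1 erythroid marker and 1 hepatoblast or hepatocyte marker had a mean level below 2. Bright genes as a whole read lower in knockout liver: the 2545 at a mean level of 3 or more had a median of -0.25. Their quartiles were -0.43 and -0.05. The 90th percentile of all probe sets was 3.67, 3.82 and 3.68 in the knockout arrays. It was 3.68, 4.07 and 4.13 in the wild type arrays, so wild type replicate 1 lay among the knockout arrays. Megakaryocyte markers had a median of -0.05 (1 of 6 lower). For mesothelial markers and for granulocyte and mast cell markers the medians were 0.02 and -0.03, with 0 of 5 and 0 of 8 past that p, and up to 2 of the 8 in other settings. The medians of these last 3 lists changed sign in some of the settings tried. The part of cell composition in the Vegfa difference was not tested.

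The genes whose profile over the 6 arrays was most like that of Vegfa were found by the root mean square difference after each gene was centred on its own mean, among the 2545 genes whose mean level was 3 or more. They were Rps28, a small-subunit ribosomal protein gene (0.115 on the log2 scale), Tmsb10, an actin monomer binding protein gene (0.196), the lactate dehydrogenase gene Ldha, also on the hypoxia list (0.206), Peg10, an imprinted gene of retrotransposon origin (0.230), and the ribosomal protein gene Rpl37a (0.237). The profile of Vegfa itself had a root mean square of 0.428 around its mean. Genes nearest to Kdr, among 9965 genes at or above the median level, were Htr5a (0.0252), Rere (0.0420), Dmrta2 (0.0478), Prkg1 (0.0491) and Sh3glb2 (0.0494), beside 0.134 for Kdr itself. These measures rest on 6 arrays, share the genotype difference and are descriptions only.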

How the data were processed

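Total RNA of 6 fetal livers was extracted with Trizol and labelled with biotin from 6 ug, per the labels' protocols. The deposited values are log2 levels, 1 for every probe set on every array. Per the submitters' processing notes they come from RMA. The log base was read from the values: the highest value per array lies between 11.8 and 12.7. Low array medians and upper ranges that differ leave the exact normalization unknown, and fold changes are those of the deposited values. Software, version and genome build are not given in the sources used here. Gene symbols came from GEO's platform annotation of the probe sets: of 28853, 21789 had 1 symbol, 1621 several and 5443 none. A gene with several probe sets was represented by the one of highest mean (19938 genes, no filter), and 19856 had their Entrez identifier in a GRCm38.p6 gene table. Genes with no probe set of their own are not analysed here.

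The genotypes were tested against each other in R 4.3.3 using limma 3.58.1 (lmFit, eBayes, two-sided, Benjamini-Hochberg over all genes, threshold 0.05), and the code was tested on simulated data. The number of arrays limits the precision. Members and lists were chosen with earlier results of these data known. Named genes are the members, Tmod3, up to 4 genes per list by smallest p, and the 5 genes most like Vegfa and most like Kdr. Alternatives were the replicate block, leaving out each array, 3 normalizations, the mean of probe sets, filtering dim genes at either of 2 levels, array weights, robust fitting with an intensity trend, a threshold of 0.10, and all probe sets.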

Additional observations from a re-analysis of the deposited data

How the results depend on the processing

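Vegfa stayed higher in knockout liver and short of the 0.05 threshold in every alternative fit that held it, with log2 fold changes from +0.75 to +0.97. The lowest adjusted p were 0.0505 without wild type replicate 1, 0.0508 with cyclic loess, 0.0527 with array weights and 0.0638 after renewed quantile normalization. The highest was 0.475 without wild type replicate 2. Adjusted values also depend on the p-values of all other genes. The unadjusted limma p of Vegfa was 2.55e-04 without wild type replicate 1 and 4.11e-04 without wild type replicate 2. The count of members past the threshold was 0 in every fit that tested members. Requiring a mean level of 3 or more left no member to test. Kdr reached an unadjusted p under 0.05 only without knockout replicate 1, at +0.28.

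Over all genes, 3 passed. With the replicate number of the titles as a replicate block the count was 0. Same-numbered arrays deviated together with correlations of 0.107, 0.057 and -0.105, so the numbers were not taken to pair embryos. The count was 6 after renewed quantile normalization, 8 with cyclic loess, 11 with array weights, 15 among genes at a mean level of 3 or more, and 0 to 95 when 1 array was left out. Among named hypoxia genes, Plod2, Ero1a, Aldoa and Pgk1 passed in some of these fits, as given above. Signs turned for members near 0. Pgf lay between -0.14 and +0.089 when 1 array was left out and was 0.0065 with array weights. Nrp1 lay between -0.13 and +0.16 when 1 array was left out, and was -0.035 centred on array medians, -0.011 with cyclic loess and -0.026 with array weights. Cdh5 was +0.011 with cyclic loess. Receptor genes near the array medians limit what change could be seen. The cause of these shifts was not tested.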
